A study of Mus musculus with 28 samples.

Results

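Sterol and fatty acid synthesis genes were followed across 7 groups of mice in RNA sequenced from the choroid plexus of the lateral ventricle, the epithelial tissue that secretes cerebrospinal fluid. The set holds 31 genes named by symbol, and each was matched to 1 Entrez identifier of the 27179 in the count tables. All 31 had enough counts to be tested, among 14983 genes tested in young mice and 16065 in aged mice. The 28 mice were male, with 1 library per mouse and 4 mice per group. Young mice (3 to 4 months, wild-type C57/BL6) were sampled at night (ZT 18, where ZT is zeitgeber time in hours from lights on), at ZT 6 after 6 h of sleep disruption, or at ZT 6 in the day after undisturbed sleep. Aged mice (12 to 14 months) were J20+, carrying the J20 transgene for human amyloid precursor protein with familial Alzheimer's disease mutations, or their wild-type (WT, labelled J20-) littermates, each sampled at ZT 18 (night) or ZT 6 (day). The promoter of the transgene is not given in the sources used here. Young libraries formed batch 1 and aged libraries batch 2, so age and batch cannot be told apart and no test was made across them.

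Cells make cholesterol from acetyl-CoA through the mevalonate pathway, which runs by way of isoprenoids to squalene and then through a series of sterol intermediates. Fatty acids are built from the same acetyl-CoA, then elongated and desaturated. Many genes of both pathways are targets of the sterol regulatory element-binding proteins (SREBPs), membrane-bound transcription factors that SCAP escorts out of the endoplasmic reticulum when sterols are low and that the INSIG proteins hold back when sterols are high. The brain makes its own cholesterol, since the blood-brain barrier keeps out that carried in plasma.

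Library totals ran from 22466931 to 28982168 counts in young mice, and from 14632089 to 43885898 counts in aged mice. Clock genes followed the labels of time in direction, though not all passed the threshold. Arntl, an activator of the circadian clock that peaks late in the night in many mouse tissues, rose by 2.50 on the log2 scale at young night against young day, and Nr1d1, a clock repressor that peaks in the day, fell by 2.13 at J20+ night against J20+ day (edgeR quasi-likelihood test, adjusted p = 0.00194). Ttr, the transthyretin gene that defines choroid epithelium, had a median of 5155 to 10402 CPM (counts scaled to the same library total) over the groups. Neural markers (10 genes each for neurons, oligodendrocytes and astrocytes) moved with the aged groups without passing a test of the difference, and their mean log2 CPM was 2.72 ± 1.67 in J20+ night, 3.19 ± 1.97 in J20+ day, 5.76 ± 1.24 in aged WT night and 2.92 ± 1.66 in aged WT day libraries (SD, n = 4 each). For Snap25, a neuron marker, the median was 7.69 CPM in J20+ night and 218 CPM in aged WT night libraries. Of 6 adipocyte markers, Plin1 and Lep had a median of 0 CPM in every group, and 2 had enough counts to be tested. In aged mice the mean log2 CPM of the tested 2 was 2.59 ± 0.09 in J20+ night and 1.99 ± 0.37 in J20+ day libraries (SD). That difference did not pass (exact 2-sided permutation test p = 0.0286, adjusted p = 0.367). It was 2.45 ± 0.28 in aged WT night and 2.09 ± 0.35 in aged WT day libraries. J20+ night library 2 stood apart from the other 3 of its group, with the lowest score of the choroid epithelium markers of all 16 aged libraries (9.62, against 10.84 to 10.90 in the other 3) and a total of 15536346 counts. It was the lowest of the 16 aged libraries for 15 of the 31 genes, and the lowest for 25.6% of all genes tested.

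Per kilobase of transcript, the desaturases led the set. Scd2, a stearoyl-CoA desaturase prominent in mouse brain, had 277 ± 153 RPKM (CPM per kilobase of transcript) in J20+ night, 301 ± 44.8 in J20+ day, 144 ± 67.2 in aged WT night and 254 ± 75.6 in aged WT day libraries (SD, n = 4 each). It had 192 ± 8.49 RPKM in young night, 183 ± 6.05 in young sleep-disrupted and 192 ± 10.6 in young day libraries. Scd1, its close paralog, followed with 97.6 RPKM on average in aged and 122 RPKM in young libraries. Hmgcs1, the enzyme that makes HMG-CoA, came next in both tables, with 85.3 RPKM in aged and 109.9 RPKM in young libraries. Stard4, a carrier of cholesterol between membranes, was the lowest of the 31 in aged libraries at 2.43 RPKM, and Mvd, mevalonate diphosphate decarboxylase, was the lowest in young libraries at 0.630 RPKM, from 8 to 51 counts per library. The order differed between the tables: Srebf1, which encodes the SREBP that chiefly drives fatty acid genes, was the sixth at 62.4 RPKM in aged and rank 23 at 5.69 RPKM in young libraries. Fasn, fatty acid synthase, had 9.97 RPKM in aged and 0.923 RPKM in young libraries, and Mvk, mevalonate kinase, had 14.2 and 1.13 RPKM. Ggps1, which makes geranylgeranyl diphosphate, stood the other way, at 9.60 RPKM in aged and 28.4 RPKM in young libraries. The GC content of the transcript was 58.4% for Srebf1, 57.9% for Fasn and 59.6% for Mvk, and 40.1% for Ggps1. Whether GC content bears on the difference between the tables was not tested.

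**Figure D1:**
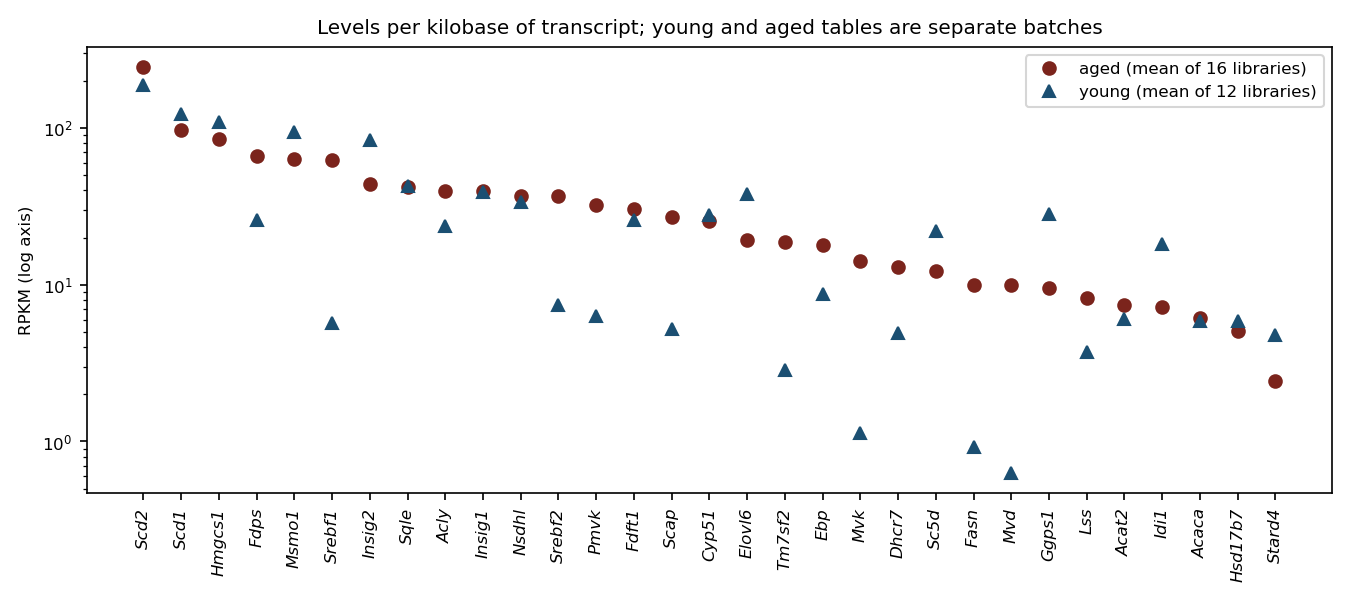
Mean level of each of the 31 genes per kilobase of transcript (RPKM, log axis) in the 16 aged libraries (circles) and the 12 young libraries (triangles), ordered by the aged level. Scd2, Scd1 and Hmgcs1 lead in both tables, while Fasn, Mvk, Mvd and Srebf1 stand far higher in the aged table, which is also the other batch.

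Within the aged libraries, the members differed widely in how much they varied. Idi1, isopentenyl-diphosphate isomerase, spanned 3.70 on the log2 CPM scale across the 16 libraries, Stard4 3.35 and Scd2 2.92. Mvk, by contrast, spanned 0.63, Mvd 0.66 and Srebf1 0.67. In the 12 young libraries Mvd spanned the most, 2.10, and Insig2, which retains SCAP in the endoplasmic reticulum, the least, 0.21.

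Promoters of members that stand at the 2 ends of the aged night difference are shown with that of Hmgcs1. RefSeq (GRCm38.p6) gave a promoter of 300 bases (250 before to 50 after the start) for 25 of the 31 genes. Letters searched on both strands were TCACNCCAC, a form of the sterol response element bound by SREBPs, CACGTG, the E-box, CCAAT, the box bound by NF-Y, and GGGCGG, the GC box bound by SP1. TCACNCCAC was found in 1 of 25 members (Hmgcs1) and in 1.44% of all 27025 genes with a promoter, CCAAT in 21 of 25 (84%) and in 41.1% of genes, GGGCGG in 20 of 25 (80%) and in 38.2%, and CACGTG in 5 of 25 (20%) and in 8.09%. The Hmgcs1 window lies at chr13:119690101-119690400 (plus strand), that of Idi1 at chr13:8885356-8885655 (plus strand) and that of Ebp, an isomerase of the late sterol steps, at chrX:8193463-8193762 (minus strand). Capitals mark TCACNCCAC and CCAAT on either strand (CCAAT reads ATTGG here), of which Hmgcs1 has 1 and 4, while Idi1 and Ebp have 2 CCAAT each. A match in these letters is a description and not a shown binding site.
Hmgcs1: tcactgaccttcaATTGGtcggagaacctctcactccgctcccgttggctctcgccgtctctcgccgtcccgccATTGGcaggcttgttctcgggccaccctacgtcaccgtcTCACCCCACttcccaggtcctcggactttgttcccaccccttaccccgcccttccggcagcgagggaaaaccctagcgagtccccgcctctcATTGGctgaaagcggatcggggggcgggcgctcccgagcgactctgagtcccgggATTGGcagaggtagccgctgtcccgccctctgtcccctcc
Idi1: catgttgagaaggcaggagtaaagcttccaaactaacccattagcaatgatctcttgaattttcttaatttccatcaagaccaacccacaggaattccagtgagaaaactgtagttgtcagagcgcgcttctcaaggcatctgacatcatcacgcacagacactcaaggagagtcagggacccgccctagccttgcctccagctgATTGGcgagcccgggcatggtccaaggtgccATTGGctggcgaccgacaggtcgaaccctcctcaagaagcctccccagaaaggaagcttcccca
Ebp: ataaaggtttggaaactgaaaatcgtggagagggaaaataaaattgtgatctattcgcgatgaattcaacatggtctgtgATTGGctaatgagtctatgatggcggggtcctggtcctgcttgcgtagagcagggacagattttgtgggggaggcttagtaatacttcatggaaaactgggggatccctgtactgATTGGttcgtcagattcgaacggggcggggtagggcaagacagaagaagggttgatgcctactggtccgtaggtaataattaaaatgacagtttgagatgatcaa

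In J20+ mice at night, against WT littermates at night, 28 of the 31 genes had a higher fitted level, with a median log2 fold change of 0.59, against -0.01 over all genes tested. Idi1, Stard4, Ggps1, Hsd17b7 and Lss led, from 2.16-fold for Lss to 4.05-fold for Idi1. No gene of the set passed the adjusted threshold of 0.05 in the edgeR quasi-likelihood test, in which 1 of 16065 genes did (0.00622%). At an unadjusted p under 0.05 there were 19 members, all higher, against 20.4% of all genes higher at that p. The members' smallest adjusted p was 0.0917. These values turn on J20+ night library 2, which lay far below the other 3 of its group for the genes that differed most. Results are given with and without it. Leaving out each library of the compared groups in turn was planned, but this one was singled out after its values were seen. Members called were 0 with any other library left out and 24 without this one. Adjusted p-values without it take no account of that choice.

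Of the steps from acetyl-CoA to isoprenoids, Idi1 differed most: it had log2 CPM of 5.28, 1.63, 5.19 and 5.32 in J20+ night libraries 1 to 4, against 3.77, 2.55, 2.38 and 2.32 in aged WT night libraries 1 to 4. The other 3 J20+ libraries lay above all 4 WT libraries, and library 2 below all of them. The log2 fold change was 2.02 ± 0.61 (SE, adjusted p = 0.0917), and 2.40 ± 0.41 without library 2 (adjusted p = 0.00166). Hmgcs1, which makes the HMG-CoA that enters the pathway, had 8.75, 6.89, 8.80 and 8.82 in J20+ night and 7.91, 7.29, 7.61 and 7.36 in aged WT night libraries. Ggps1 had 5.58, 4.24, 6.01 and 6.15 in J20+ night and 4.77, 4.43, 4.33 and 4.21 in aged WT night libraries. Both show the same picture, with J20+ libraries 1, 3 and 4 above the WT range. Ggps1 had a log2 fold change of 1.21 ± 0.36 (adjusted p = 0.0917) and Hmgcs1 of 0.94 ± 0.33 (0.0962), against 1.49 and 1.24 without library 2. The remaining genes of these steps differed little: Fdps, which makes farnesyl diphosphate, had 6.86, 6.66, 6.60 and 6.88 in J20+ night and 6.54, 6.47, 6.57 and 6.41 in aged WT night libraries, groups that did not overlap but lay close (0.26 ± 0.14). Mvk was at 0.27 ± 0.12, Mvd at 0.15 ± 0.12, Pmvk, phosphomevalonate kinase, at 0.13 ± 0.13, and Acat2, a cytosolic acetyl-CoA acetyltransferase that has a close paralog in Acat3, at -0.13 ± 0.14 (adjusted p = 0.519).

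Of the squalene and sterol steps, Hsd17b7, a ketosteroid reductase, had log2 CPM of 5.35, 3.06, 5.04 and 5.06 in J20+ night libraries and 4.12, 3.44, 3.81 and 3.38 in aged WT night libraries. Lss, lanosterol synthase, had 5.87, 4.60, 5.80 and 5.92 in J20+ night and 4.90, 4.60, 4.20 and 4.32 in aged WT night libraries. Without library 2 the groups are apart for both genes, and with it they overlap. Hsd17b7 had a log2 fold change of 1.14 ± 0.37 (adjusted p = 0.0926) and Lss of 1.11 ± 0.30 (0.0917). Sc5d, which desaturates late sterols, had 6.42, 4.17, 6.43 and 6.33 in J20+ night and 5.52, 4.88, 5.17 and 4.84 in aged WT night libraries (0.95 ± 0.38). Msmo1, a sterol demethylase, was at 0.69 ± 0.33, Sqle, the squalene epoxidase that is one of the rate-controlling enzymes, at 0.59 ± 0.26, Cyp51, lanosterol demethylase, at 0.50 ± 0.31 and Dhcr7, the last reductase of one branch, at 0.42 ± 0.16. Fdft1, squalene synthase, and Nsdhl, another enzyme of demethylation, were at 0.20 ± 0.20 and 0.19 ± 0.20. At the other end, Ebp had 4.96, 4.95, 4.87 and 4.91 in J20+ night and 5.06, 4.82, 5.57 and 5.14 in aged WT night libraries, and Tm7sf2, a sterol reductase, had 4.90, 5.49, 4.60 and 4.40 in J20+ night and 5.0, 5.20, 5.15 and 5.15 in aged WT night libraries. These groups overlap, and the log2 fold changes were -0.25 ± 0.15 for Ebp (adjusted p = 0.250) and -0.22 ± 0.22 for Tm7sf2 (0.476).

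The 5 genes of SREBP and its regulation were all at a positive log2 fold change with an unadjusted p under 0.05. Of all genes tested, 20.4% were higher at that p. Srebf2, the SREBP that chiefly drives sterol genes, had log2 CPM of 7.99, 6.58, 7.98 and 7.87 in J20+ night and 7.21, 6.76, 7.04 and 6.83 in aged WT night libraries (0.74 ± 0.26). Insig2 had 7.32, 5.63, 7.34 and 7.40 in J20+ night and 6.44, 5.88, 6.53 and 5.98 in aged WT night libraries (0.84 ± 0.31). In both genes library 2 lay below every WT library and the other 3 above. Scap had 7.08, 6.59, 7.13 and 6.97 in J20+ night and 6.52, 6.46, 6.55 and 6.57 in aged WT night libraries, which did not overlap (0.43 ± 0.16). Insig1, itself an SREBP target, was at 0.56 ± 0.23 and Srebf1 at 0.31 ± 0.14. The cholesterol carrier Stard4 had 4.27, 1.34, 4.45 and 4.68 in J20+ night and 2.87, 2.06, 1.59 and 2.10 in aged WT night libraries, from 43 to 654 and from 56 to 118 counts. Its log2 fold change was 1.91 ± 0.55 (adjusted p = 0.0917), and 2.28 ± 0.38 without library 2.

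The 6 genes of fatty acid synthesis were also all positive, 4 of them with an unadjusted p under 0.05, against 20.4% of all genes. Acly, which makes cytosolic acetyl-CoA from citrate, had log2 CPM of 7.91, 6.01, 7.92 and 8.14 in J20+ night and 7.17, 6.41, 6.63 and 6.67 in aged WT night libraries (0.95 ± 0.34). Scd2 had 10.95, 8.03, 10.92 and 10.88 in J20+ night and 10.37, 9.45, 9.27 and 8.98 in aged WT night libraries (0.95 ± 0.47). Library 2 was more than 2 log2 units below the others of its group for Scd2 and lay below every WT library. Elovl6, which elongates palmitate, did not overlap between the groups, with 7.19, 6.52, 7.49 and 7.33 in J20+ night and 6.46, 6.48, 6.34 and 6.39 in aged WT night libraries (0.76 ± 0.29). Scd1 was at 0.92 ± 0.40, Acaca, acetyl-CoA carboxylase, at 0.71 ± 0.27 and Fasn at 0.40 ± 0.25.

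**Figure D2:**
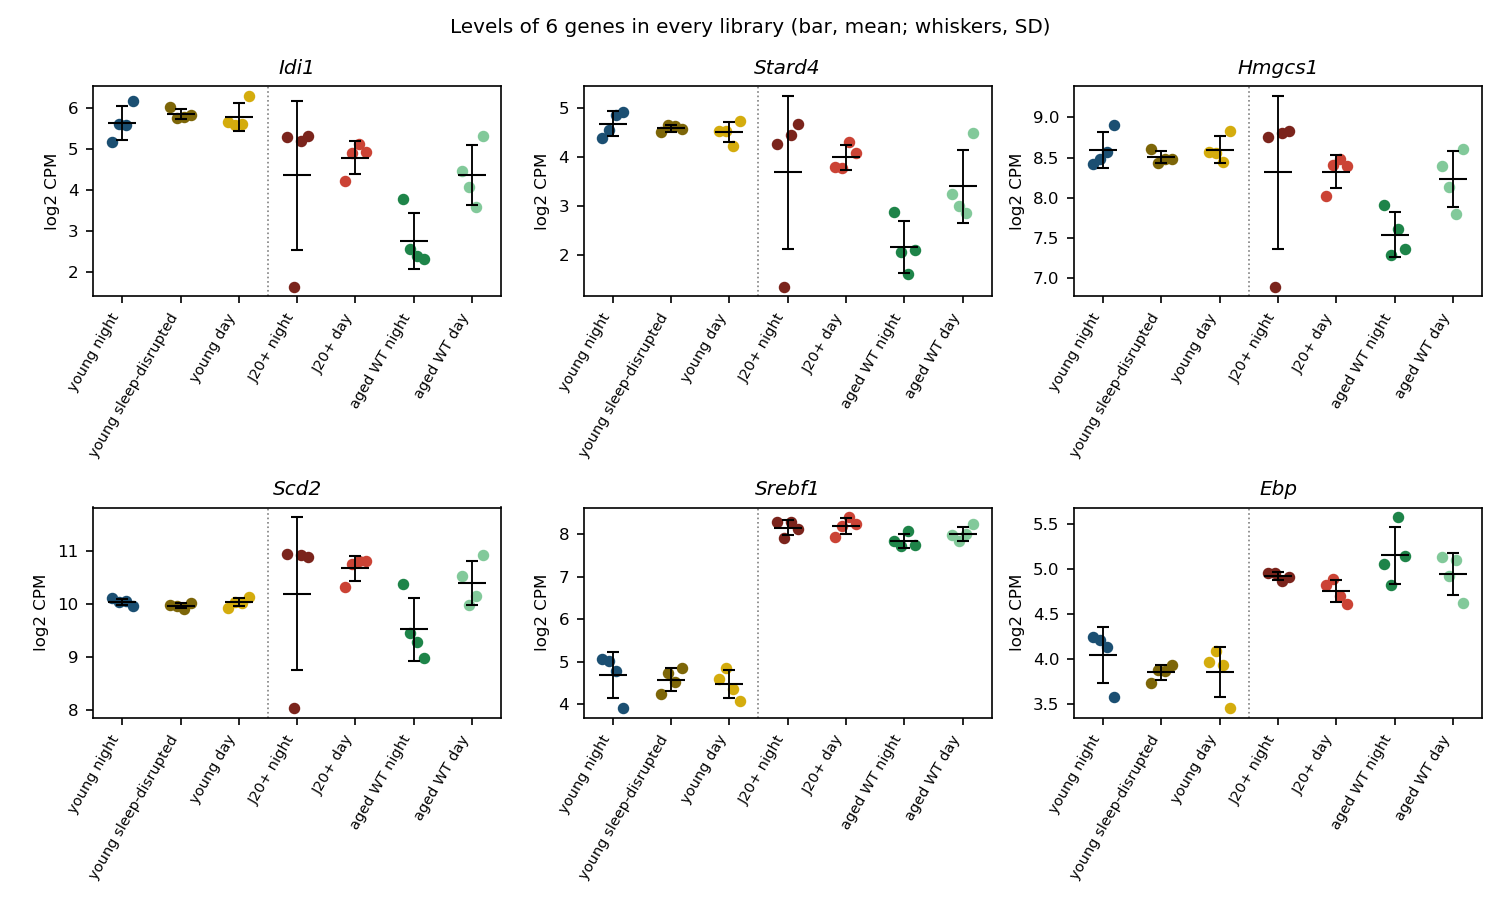
Log2 CPM of Idi1, Stard4, Hmgcs1, Scd2, Srebf1 and Ebp in each of the 28 libraries (points) by group, with the group mean (bar) and SD (whiskers); the dotted line parts the young and aged tables, which are separate batches. J20+ night library 2 lies far below the other 3 of its group for Idi1, Stard4, Hmgcs1 and Scd2, as at 1.63 against 5.19 to 5.32 for Idi1.

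Over the set, 3 of 31 members (Fdps, Scap and Elovl6) had all J20+ night libraries above all aged WT night libraries, against 4.28% of all genes tested. Leaving out J20+ night library 2, 26 of 31 did, against 31.9%. In the fit without that library, 23 members rose, against 29.6% of all genes called higher, and 1, Tm7sf2, fell (-0.47 ± 0.18, adjusted p = 0.0338), against 28.1% called lower. The median log2 fold change of the members was then 0.84. Among those that rose were Idi1, Stard4 (adjusted p = 0.00166), Hsd17b7 (1.46), Lss (1.35), Sc5d (1.28), Acly (1.26), Insig2 (1.13), Scd2 (1.31), Scd1 (1.23), Srebf2 (0.99), Msmo1 (0.97), Elovl6 (0.93), Acaca (0.92), Sqle (0.84), Cyp51 (0.77) and Insig1 (0.73). Acat2, Ebp, Nsdhl, Mvd, Pmvk, Fdps and Fdft1 did not pass. With all libraries, DESeq2 called 11 members, all higher, against 12.6% of genes, and limma-voom with quality weights, which can give a library such as this one less weight, called 25 higher, against 36.0%, and 1 lower, against 36.1%. The members' shares called higher were above these shares of all genes, and no test of that difference was made.

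Measures of the libraries moved with these groups. The neural score was lower in J20+ night than in aged WT night libraries, and the choroid epithelium score was 10.56 ± 0.62 in J20+ night and 10.02 ± 0.30 in aged WT night libraries. The GC trend, the slope of a library's log2 counts on the GC content of transcripts (log2 units per 10 percentage points, relative to the mean of its table), was -0.25 to -0.20 in J20+ night libraries 1, 3 and 4, 0.49 in library 2 and 0.16 to 0.39 in aged WT night libraries. With the neural score as a covariate the members' median log2 fold change was 0.28, with 28 of 31 positive. In that fit 0 members had an unadjusted p under 0.05, against 19 without a covariate. The GC trend fit had 2 members at that p, Lss (0.43) and Acat2 (-0.33). With the GC trend as a covariate, an alternative chosen after seeing the data, it was 0.09, with 21 of 31 positive, and Idi1 was at 0.10 (adjusted p = 0.900). Since the tissue was sequenced in bulk, fewer cells of a type and less RNA per cell cannot be told apart.

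**Figure D3:**
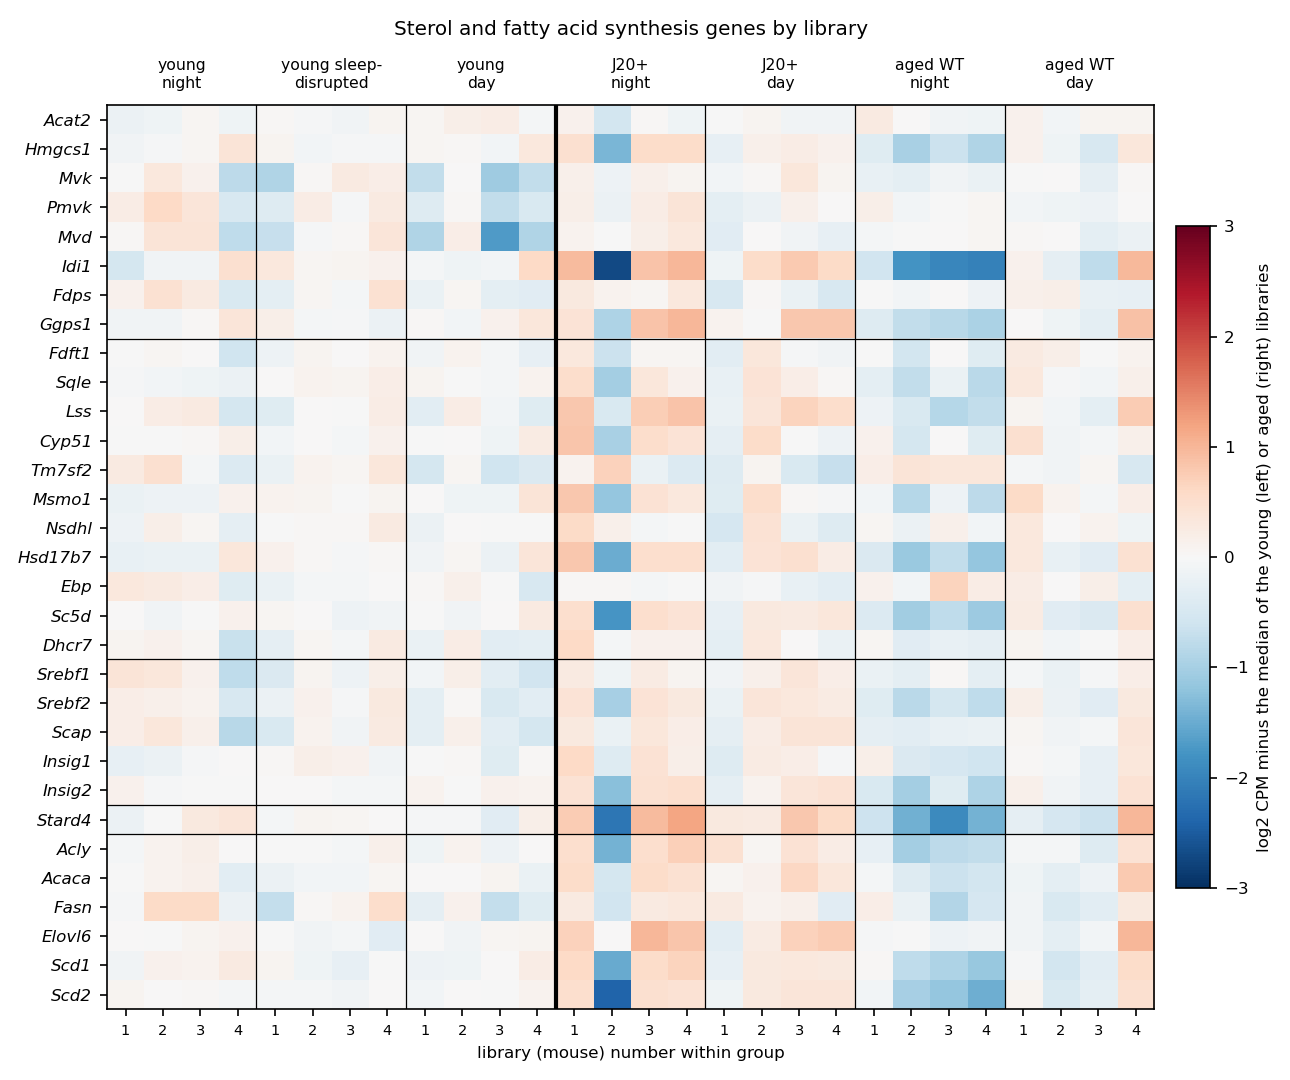
Log2 CPM of each gene in each library, shown as the difference from the gene's median over the 12 young libraries (left of the thick line) or the 16 aged libraries (right of it); thin horizontal lines part the isoprenoid steps, the sterol steps, SREBP and its regulators, Stard4 and the fatty acid genes. Most genes of the set are low together in J20+ night library 2 and in aged WT night libraries 2, 3 and 4, and high together in the other 3 J20+ night libraries. The members' median difference is as low in aged WT day library 3 (-0.25) and J20+ day library 1 (-0.24) as in aged WT night library 3 (-0.23).

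At night against day in aged WT mice, 27 of the 31 members had a lower fitted level at night, with a median log2 fold change of -0.35 against 0.03 over all genes tested. The 4 with a positive value were Tm7sf2, Ebp, Pmvk and Mvd. No member passed in the edgeR quasi-likelihood test, in which 2 of 16065 genes did (0.0124%). At an unadjusted p under 0.05 there were 10 members, all lower, against 15.2% of all genes lower at that p. The members' smallest adjusted p was 0.144. DESeq2 called 0 members, against 4.56% of genes called lower and 4.09% called higher. The other tool, limma-voom, called 16 lower, against 24% of genes, and 1 higher, against 27.8%. The main fit took the spread from all aged libraries, those of J20+ mice included. An edgeR fit of the compared groups only called 10 members lower, against 12.6% of genes, and 1 higher, against 13.7%. Without J20+ day library 1 and J20+ night library 2, a choice made afterwards, 14 were lower, against 21.5%, and 1 higher, against 22.9%. This comparison and the one above share the 4 aged WT night libraries, so their values are set side by side and are not independent.

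Idi1 had log2 CPM of 3.77, 2.55, 2.38 and 2.32 in aged WT night and 4.46, 4.07, 3.58 and 5.31 in aged WT day libraries, which overlap through night library 1 (-1.62 ± 0.60, adjusted p = 0.144). Stard4 had 2.87, 2.06, 1.59 and 2.10 in aged WT night and 3.24, 3.00, 2.86 and 4.49 in aged WT day libraries (-1.35 ± 0.55, adjusted p = 0.145). Hsd17b7 had 4.12, 3.44, 3.81 and 3.38 in aged WT night and 4.87, 4.33, 4.22 and 5.02 in aged WT day libraries, which are apart (-0.93 ± 0.37, adjusted p = 0.144). Members that lay wholly lower at night were Hsd17b7, Ggps1, Sqle, Msmo1, Srebf2, Scap and Insig2, 7 of 31 in all, against 15.2% of all genes. Srebf2, for one, had 7.21, 6.76, 7.04 and 6.83 in aged WT night and 7.77, 7.40, 7.25 and 7.89 in aged WT day libraries (-0.63 ± 0.26). Tm7sf2 lay wholly higher, 1 of 31 against 10.8% of genes, with 5.0, 5.20, 5.15 and 5.15 in aged WT night and 4.76, 4.71, 4.86 and 4.32 in aged WT day libraries (0.46 ± 0.22, adjusted p = 0.164). Ebp was at 0.22 ± 0.15 (adjusted p = 0.291) and Pmvk at 0.12 ± 0.13 (0.484). Fatty acid genes were all at negative values, between -0.82 for Scd2 and -0.17 for Fasn, with none at an unadjusted p under 0.05.

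The neural score was 5.76 ± 1.24 in aged WT night and 2.92 ± 1.66 in aged WT day libraries (SD, n = 4 each, exact 2-sided permutation test p = 0.0571, adjusted p = 0.367 over 77 tests of scores), and the choroid epithelium score was 10.02 ± 0.30 and 10.79 ± 0.18. The GC trend was 0.16 to 0.39 in aged WT night and -0.29 to 0.06 in aged WT day libraries. With the neural score as a covariate the members' median log2 fold change was -0.13, with 7 of 31 positive, and with the GC trend 0.09, with 25 of 31 positive. Among aged WT day libraries, library 4 had the lowest neural score of its group, 1.04, and was the highest of its group for 21 of the 31 members, Idi1, Stard4 and Scd2 among them, and for 38.4% of all genes.

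**Figure D4:**
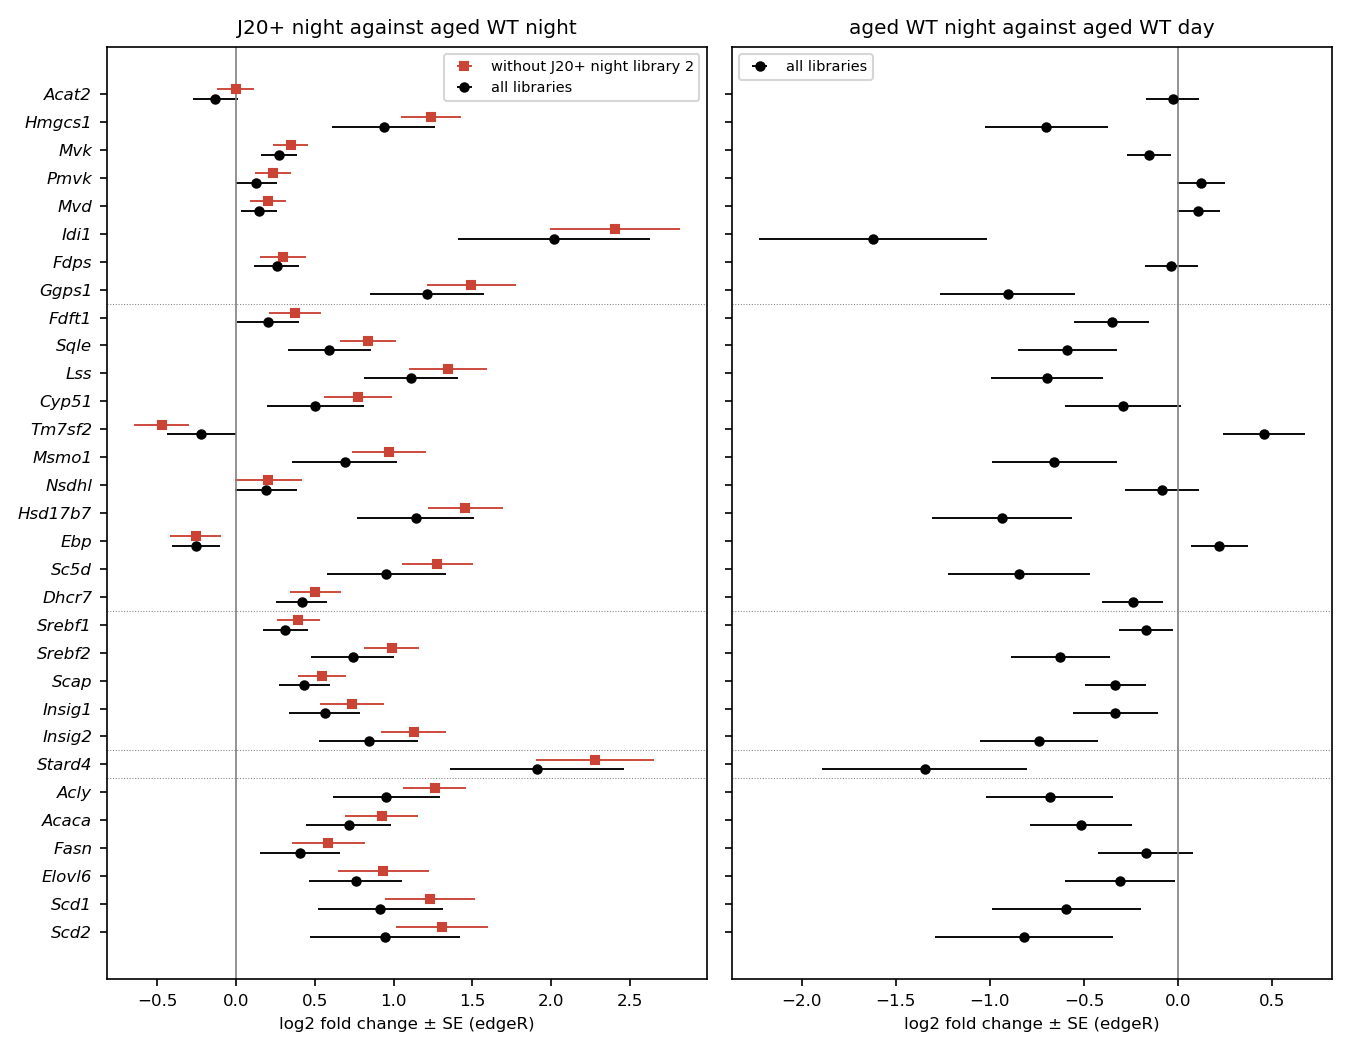
Log2 fold change (points) with SE (lines) of each gene from the edgeR fit, for J20+ night against aged WT night (left) and aged WT night against aged WT day (right); squares give the fit without J20+ night library 2. Idi1 and Stard4 stand at the high end on the left (2.02 and 1.91) and at the low end on the right (-1.62 and -1.35), and both sides share the 4 aged WT night libraries.

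In J20+ mice the fitted night-day difference was smaller in size than in aged WT mice for most members. The J20+ night libraries themselves were widely spread, as from 1.63 in library 2 to 5.32 log2 CPM for Idi1. The members' median log2 fold change at J20+ night against J20+ day was 0.08, with 20 of 31 positive, against 0.02 over all genes. No member passed in the edgeR quasi-likelihood test, in which 7 of 16065 genes did (0.0436%). At an unadjusted p under 0.05 there were 2 members, Fdps and Mvd, both higher, a share near the 4.36% of all genes higher at that p. DESeq2 called 0, against 0.255% of genes called higher and 0.237% called lower. In limma-voom the same 2, Fdps and Mvd, were called, against 0.722% of genes called higher. Fdps had log2 CPM of 6.86, 6.66, 6.60 and 6.88 in J20+ night and 6.08, 6.59, 6.36 and 6.08 in J20+ day libraries, with every night library above every day library, as held for 2.42% of all genes (0.46 ± 0.14, adjusted p = 0.643). Mvd had 4.26, 4.15, 4.33 and 4.48 in J20+ night and 3.82, 4.17, 4.05 and 3.92 in J20+ day libraries, which overlap by 1 library each (0.32 ± 0.12, adjusted p = 0.652). Tm7sf2 was at 0.45 ± 0.22 (adjusted p = 0.652), while Scd2 (-0.12 ± 0.47, adjusted p = 1.000), Srebf2 (-0.07 ± 0.26) and Acat2 (-0.07 ± 0.14) were the lowest. Without night library 2 the median was 0.29, and Scd2, Srebf2 and Acat2 had positive values of 0.24, 0.17 and 0.05.

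By day, J20+ mice against WT littermates showed no member past the threshold in the edgeR quasi-likelihood test, in which 0% of genes passed (0 of 16065, 300 at an unadjusted p under 0.05, 0 with DESeq2 and 2369 with limma-voom). No member had an unadjusted p under 0.05 and DESeq2 called 0. In limma-voom 7 members were higher, against 10.5% of genes, and 1 was lower, against 4.23%. The members' median log2 fold change was 0.13, with 21 of 31 positive, against 0.03 over all genes, with 54.6% positive. Stard4 had 3.79, 3.77, 4.32 and 4.09 in J20+ day and 3.24, 3.00, 2.86 and 4.49 in aged WT day libraries, with WT library 4 above all J20+ libraries (0.45 ± 0.53, adjusted p = 0.989). Idi1 was at 0.33 ± 0.58 and Ggps1 at 0.29 ± 0.36, and Fdps (-0.24 ± 0.14), Tm7sf2 (-0.21 ± 0.22) and Ebp (-0.20 ± 0.15) were the lowest (adjusted p = 0.989 for each of these 5).

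Whether the night-day change differed with genotype was tested by the interaction, the night-day log2 fold change in J20+ minus that in aged WT mice. It was positive for 28 of 31 members, with a median of 0.56, against 0.06 over all genes. No member passed, and 0% of genes did in the edgeR quasi-likelihood test (0 of 16065, 1992 at an unadjusted p under 0.05, 9 with DESeq2 and 5382 with limma-voom). At an unadjusted p under 0.05 there were 2 members, Fdps (0.50 ± 0.20, adjusted p = 0.363) and Lss (0.90 ± 0.42, adjusted p = 0.399), both positive, against 2.95% of all genes positive at that p. DESeq2 called 0 members and limma-voom 19, all positive, against 18.2% of genes. The highest values were those of Idi1 (1.69 ± 0.83, adjusted p = 0.417), Stard4 (1.46 ± 0.76, 0.431) and Hsd17b7 (1.01 ± 0.52, 0.427), and the lowest those of Ebp (-0.05 ± 0.21, 0.936), Acat2 (-0.04 ± 0.20, 0.955) and Tm7sf2 (-0.01 ± 0.31, 0.995). Without J20+ night library 2, 12 members passed, all positive, against 11.2% of all genes called positive: Idi1, Stard4, Hsd17b7, Ggps1, Hmgcs1, Lss, Sc5d, Msmo1, Insig2, Acly, Sqle and Srebf2. With J20+ day library 1 left out as well, 0 members and 0 of 16115 genes passed. Both libraries were singled out after their values were seen. With the neural score as a covariate the members' median was 0.09, and with the GC trend 0.01.

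In young mice the members' medians were near 0. At night against day, 21 of 31 members had a positive log2 fold change, with a median of 0.04 against 0.02 over all genes, and none passed in the edgeR quasi-likelihood test, in which 40 of 14983 genes did (0.267%). At an unadjusted p under 0.05 there was 1 member, Pmvk, which was higher, against 4.87% of all genes higher at that p. DESeq2 called 0 members, against 0.647% of genes called higher and 1.07% called lower. In limma-voom 8 were called, all higher, against 11% of genes. Scd2, the most abundant of the set, had log2 CPM of 10.11, 10.03, 10.05 and 9.95 in young night and 9.93, 10.04, 10.02 and 10.13 in young day libraries (0.00 ± 0.06). Hmgcs1 had 8.41, 8.48, 8.57 and 8.91 in young night and 8.57, 8.55, 8.44 and 8.83 in young day libraries (0.00 ± 0.11). Neither pair of groups is parted. Pmvk had 3.18, 3.55, 3.31 and 2.46 in young night and 2.56, 2.98, 2.2 and 2.49 in young day libraries, with night library 4 among the day libraries (0.59 ± 0.24, adjusted p = 0.472). Mvd (0.78 ± 0.42, adjusted p = 0.582), Mvk (0.56 ± 0.33, 0.614) and Fasn (0.55 ± 0.27, 0.564) were also high, all of them genes of low level in young libraries. Acat2 (-0.19 ± 0.10, adjusted p = 0.571), Msmo1 (-0.15 ± 0.11, 0.687) and Sqle (-0.14 ± 0.07, 0.550) were the lowest.

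After sleep disruption, against undisturbed young mice at the same hour, 19 of 31 members had a positive log2 fold change, with a median of 0.07 against 0.00 over all genes. No member passed in the edgeR quasi-likelihood test, and 0% of genes did (0 of 14983, 359 at an unadjusted p under 0.05, 0 with DESeq2 and with limma-voom). No member had an unadjusted p under 0.05, and DESeq2 and limma-voom called 0 members. Mvd had log2 CPM of -0.28, 0.36, 0.45 and 0.78 in young sleep-disrupted and -0.49, 0.62, -1.29 and -0.50 in young day libraries, which overlap (0.66 ± 0.42, adjusted p = 0.861). Mvk (0.55 ± 0.33) and Tm7sf2 (0.45 ± 0.22) came next, and Elovl6 (-0.14 ± 0.08), Ggps1 (-0.13 ± 0.13) and Insig2 (-0.11 ± 0.06) were the lowest, each at an adjusted p of 0.861.

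Young mice awake at night, against young mice kept awake by day, had 21 of 31 members at a positive log2 fold change, with a median of 0.05 against 0.01 over all genes. No member passed in the edgeR quasi-likelihood test, in which 57 of 14983 genes did (0.380%). DESeq2 called 0 members, against 0.881% of genes called higher and 1.20% called lower. In limma-voom 1 was higher, against 3.51% of genes, and 1 was lower, against 3.86%. The 2 members at an unadjusted p under 0.05 were Elovl6, higher, against 5.11% of all genes, and Sqle, lower, against 4.59%, shares near the background. Sqle had log2 CPM of 6.82, 6.79, 6.73 and 6.68 in young night and 6.88, 6.98, 6.96 and 7.06 in young sleep-disrupted libraries, with every night library lower, as held for 4.18% of all genes (-0.21 ± 0.07, adjusted p = 0.300). Elovl6 had 7.85, 7.83, 7.92 and 7.98 in young night and 7.82, 7.74, 7.79 and 7.51 in young sleep-disrupted libraries, with every night library higher, as held for 3.65% of all genes (0.18 ± 0.08, adjusted p = 0.497). Idi1 (-0.17 ± 0.20, adjusted p = 0.954) and Insig1 (-0.17 ± 0.10, 0.704) were at the low end, and Fasn (0.23 ± 0.27, 0.954), Ebp (0.21 ± 0.16, 0.812) and Pmvk (0.19 ± 0.24, 0.963) at the high end.

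The GC content of the members' transcripts runs from 40.1% (Ggps1) to 59.6% (Mvk), and their fold changes followed it in some comparisons and hardly in others. Across the 31 genes, which are not independent replicates and share the same libraries, Pearson's r of log2 fold change with GC content was 0.78 at young night against young day, 0.80 after sleep disruption against young day, 0.64 at aged WT night against aged WT day and -0.61 in J20+ night against aged WT night. It was -0.70 in the interaction, 0.24 at young night against young sleep-disrupted, 0.03 at J20+ night against J20+ day and -0.22 in J20+ day against aged WT day. Across all genes with a GC content, r was 0.33, 0.48, 0.23 and -0.20 in the first 4 of these comparisons, and -0.13, -0.05, 0.10 and -0.05 in the other 4. Among the 31, those below the members' median GC content (15 genes) had a median log2 fold change of 0.84 in J20+ night against aged WT night, and the other 16 had 0.29. At young night against young day the 15 had -0.04 and the 16 had 0.26. The GC trend of the libraries was -0.44 in young night library 4 and 0.16 to 0.29 in the other 3 young night libraries, and -0.38 to 0.16 in young day libraries. Young night library 4 was the lowest of the 12 young libraries for 10 of the 31 members and for 27.6% of all genes. The part of these differences in the results was not tested beyond the fits with the GC trend.

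**Figure D5:**
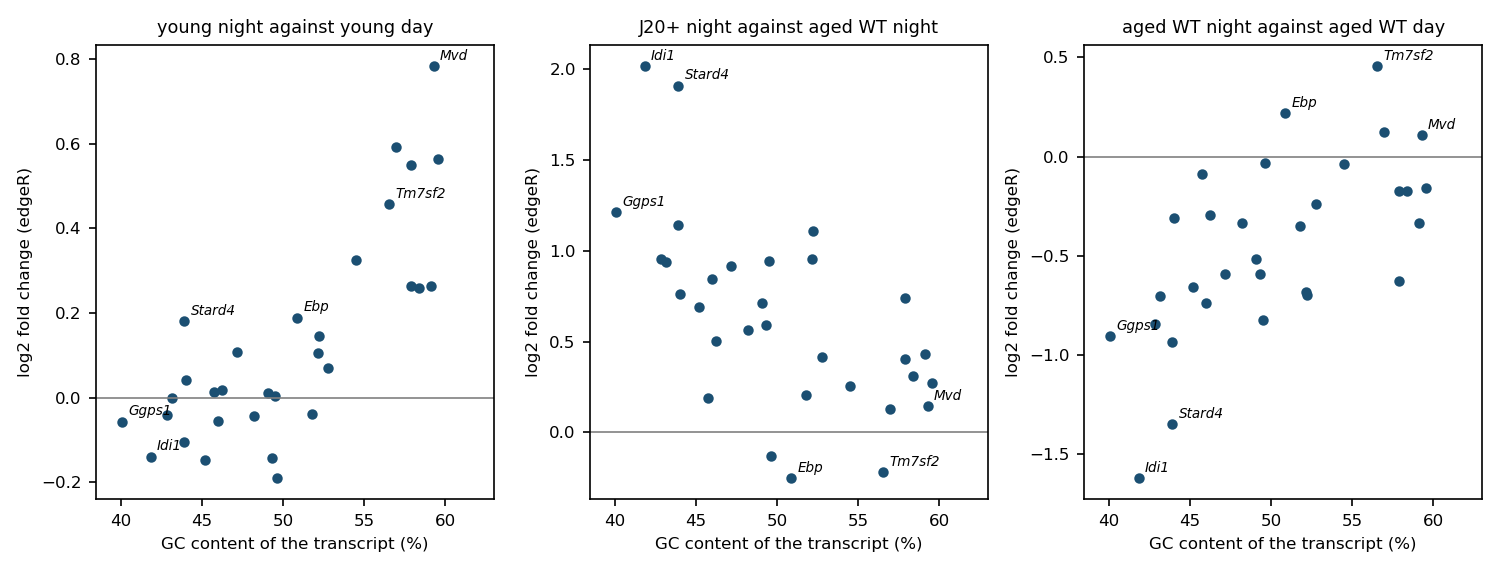
Log2 fold change of each of the 31 genes (points) against the GC content of its longest coding transcript, in young night against young day (left), J20+ night against aged WT night (middle) and aged WT night against aged WT day (right). GC-rich Mvd and Tm7sf2 are at the upper end on the left and right, and AT-rich Idi1, Stard4 and Ggps1 at the upper end in the middle.

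Other genes of lipid metabolism were read from 3 lists. Of 21 tested genes among other SREBP targets and SREBP processing, 18 were positive in J20+ night against aged WT night (median 0.60). At an unadjusted p under 0.05 there were 13 of them and 2 negative ones. Over all genes tested in that comparison, 49.5% were positive and 20.4% were higher at that p. In either direction, 31.9% of all genes had that p. Acacb, the mitochondrial acetyl-CoA carboxylase, had the smallest p of that list (0.89 ± 0.18, adjusted p = 0.0917), and was at -0.75 ± 0.18 in aged WT night against aged WT day (adjusted p = 0.144). Elovl5, an elongase of polyunsaturated fatty acids, was at -1.42 ± 0.59 in J20+ night against aged WT night (adjusted p = 0.124). Of 19 tested genes of sterol sensing, efflux, storage and turnover, 14 were positive in J20+ night against aged WT night (median 0.16), led by Mylip, a sterol-induced ubiquitin ligase (0.66 ± 0.18, adjusted p = 0.0917). In young mice Abcg1, a sterol exporter induced by LXR, was at 0.40 ± 0.09 at night against day (adjusted p = 0.104) and at 0.43 ± 0.09 at night against sleep disruption (adjusted p = 0.0613).

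All 17 tested genes of the fatty acid oxidation list had negative values at aged WT night against aged WT day (median -0.62) and positive ones in J20+ night against aged WT night (median 0.47), with Hadha, a subunit of the mitochondrial trifunctional protein, at -1.07 ± 0.31 and 0.74 ± 0.31. Over all genes tested, 52.1% were positive in the first of these comparisons and 49.5% in the second.

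Some members share sequence or position with other genes, and the handling of reads with several alignments and of strand in counting is not given in the sources used here. Scd1 and Scd2 are close paralogs, as are Acat2 and Acat3, so reads could be split between them. Fdft1 overlaps 774 bases of Ctsb, a gene with 446386 counts over the aged libraries against 38241 for Fdft1, and Srebf1 overlaps 114 bases of Rai1. Lss overlaps a long non-coding RNA by 11269 bases that holds 1320 counts against 13769 for Lss.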

How the data were processed

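Total RNA of single choroid plexuses was sequenced as stranded mRNA libraries, per the labels' protocols. The authors deposited raw read counts per Entrez gene. Per the submitters' processing notes, the build was mm10 and the tools included HISAT2 2.2.1 and featureCounts 2.0.1, with Picard 2.18.2, FastQC 0.11.8 and cutadapt. How strand and multi-mapping reads were treated is not given in the sources used. From the counts, edgeR 4.0.16 (R 4.3.3) fitted young and aged tables apart, with TMM scaling, its default filter and a robust quasi-likelihood test, Benjamini-Hochberg adjusted over all genes (threshold 0.05). Levels are log2 CPM with a prior count of 2, or RPKM over the gene's longest coding transcript in GENCODE, which also gave the GC content. In RefSeq GRCm38.p6, used for gene symbols, 93.0% of identifiers matched. DESeq2 1.42.0, limma 3.58.1 and other settings served as alternatives. The test was tried on simulated data. Standard errors come from the fold change and its F statistic.

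The members and lists were chosen with earlier results of these data known. Fold changes are given by rule for the 3 highest and 3 lowest members per comparison, and of the other lists for genes called or with the smallest p. Further ones were named after their values were seen. Each library is 1 mouse, so p-values measure the spread between mice. A result of the other lists is not reported here.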

Additional observations from a re-analysis of the deposited data

Results flagged for a closer look

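In each group of 4 libraries, a gene's highest or lowest library was set against the others by the ratio of its gap to the group's range (Dixon's test at the 95% level). Of 217 gene and group pairs, 31 passed, at a nominal rate of about 1 in 20 per pair. Genes of a group share its libraries, so the pairs are not independent. The share over all genes is not given, so this count is not read as a result about the members. Values are log2 CPM.

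J20+ night library 2 was far below its group for 13 genes. Of the sterol genes and their regulators, it was at 6.892 for Hmgcs1, 1.6279 for Idi1, 4.5991 for Lss, 3.0616 for Hsd17b7 and 4.1668 for Sc5d. It was at 6.5788 for Srebf2, 5.6329 for Insig2 and 1.3364 for Stard4. Of the fatty acid genes, it was at 6.006 for Acly, 5.2254 for Acaca, 6.1148 for Fasn, 7.3788 for Scd1 and 8.029 for Scd2. J20+ day library 1 was below its group for Sc5d at 5.677, Scd1 at 8.6438 and Scd2 at 10.3224, and had a neural score of 5.60, the highest of its group.

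Aged WT night library 1 was above its group for Idi1, at 3.7699. Among aged WT day libraries, library 3 was low for Mvk, at 4.3195, and library 4 was high for Acaca, at 6.548, and Elovl6, at 7.4909.

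Young night library 4 was low for Fdft1 at 6.0444, Ebp at 3.5783, Dhcr7 at 3.1992, Srebf2 at 4.8211 and Scap at 3.7188, and high for Msmo1 at 7.7137 and Hsd17b7 at 5.0768. Single young day libraries stood apart for Idi1 (library 4, high, 6.2987), Nsdhl (library 1, low, 6.0153), Insig1 (library 3, low, 6.3859) and Insig2 (library 2, low, 7.7753).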

How the results depend on the processing

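No paired analysis was possible because the labels give each mouse its own number, and replicate numbers here only follow the order of the records. Of 881 values of named members under alternatives, 795 kept direction and side of the threshold, 44 passed it and 42 reversed. Members called in limma-voom numbered 8 in young night against young day, 2 in young night against young sleep-disrupted, 17 in aged WT night against aged WT day, 2 in J20+ night against J20+ day, 8 in J20+ day against aged WT day, 26 in J20+ night against aged WT night and 19 in the interaction. DESeq2 called 11 in J20+ night against aged WT night, and a fit of the compared groups only called 11 in aged WT night against aged WT day (10 lower, against 12.6% of genes, and 1 higher, against 13.7%). With the GC trend, chosen after seeing the data, 1 was called in young night against young day (lower, against 3.12% of genes) and 2 in young night against young sleep-disrupted (1 higher, against 2.82%, and 1 lower, against 4.02%). Without J20+ day library 1 and J20+ night library 2, also chosen afterwards, 25 were called in J20+ night against aged WT night (24 higher, against 31.2% of genes, and 1 lower, against 31.7%), 15 in aged WT night against aged WT day (14 lower, against 21.5%, and 1 higher, against 22.9%) and 0 in the interaction. Leaving out 1 library of the compared groups, members called ranged from 0 to 24 in J20+ night against aged WT night and from 0 to 12 in the interaction. Both were highest without J20+ night library 2, and the counts were 0 elsewhere. Libraries of other groups, which share the estimate of the spread, were not left out singly. Thus aged WT night against aged WT day was not fitted without J20+ night library 2 alone. All genes called ranged over alternatives from 13 to 2797 in young night against young day, 16 to 1105 in young night against young sleep-disrupted, 2 to 8312 in aged WT night against aged WT day, 1 to 274 in J20+ night against J20+ day, 0 to 2369 in J20+ day against aged WT day, 0 to 11588 in J20+ night against aged WT night and 0 to 5382 in the interaction.

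The members' median log2 fold change with the GC trend was 0.087 in aged WT night against aged WT day, 0.091 in J20+ night against aged WT night and 0.0062 in the interaction, where the neural score gave 0.091. Upper-quartile scaling moved the median of all genes to -0.16 in J20+ night against aged WT night (members 0.39) and to 0.15 in aged WT night against aged WT day (members -0.24).

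Reversed log2 fold changes were as follows, and the cause was not tested. With the GC trend, Ggps1 was at 0.014 in young sleep-disrupted against young day. In aged WT night against aged WT day it put Idi1 at 0.093, Stard4 at 0.21 and Hsd17b7 at 0.023, in J20+ night against aged WT night Tm7sf2 at 0.096, and in the interaction Tm7sf2 at 0.25, Stard4 at -0.17 and Idi1 at -0.12. The neural score put Tm7sf2 at 0.14 in J20+ night against aged WT night and at 0.38 in the interaction. In J20+ night against J20+ day, limma-voom put Scd2 at 0.10, Srebf2 at 0.078 and Acat2 at 0.088, and the fit without both libraries put them at 0.13, 0.057 and 0.061. Acat2 was at 0.00084 in J20+ night against aged WT night with limma-voom. In the interaction, limma-voom put Ebp at 0.19 and Acat2 at 0.15, no filter put Ebp at 0.034, Acat2 at 0.063 and Tm7sf2 at 0.079, and the fit without both libraries put Acat2 at 0.092. Leaving out 1 library, Ebp ranged from -0.033 to 0.32 in aged WT night against aged WT day. In J20+ night against J20+ day Scd2 ranged from -0.34 to 0.24, Srebf2 from -0.24 to 0.17 and Acat2 from -0.23 to 0.054. In the interaction Ebp ranged from -0.16 to 0.22, Acat2 from -0.18 to 0.089 and Tm7sf2 from -0.26 to 0.13.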
